A study of Mus musculus with 4 samples.

Results

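The S100 proteins are a family of small calcium sensors, and 10 of their genes were examined in the skin of bleomycin (BLM)-treated mice: S100a3, S100a4, S100a6, S100a8, S100a9, S100a10, S100a11, S100a14, S100a16 and S100b. They were picked by gene symbol from a table of 24441 genes, and 10 of the 10 symbols were found. RNA was sequenced from 2 WT libraries and 2 GSDMD KO libraries, all from female C57BL/6 mice labelled as 8 weeks of age. BLM, a cytotoxic antibiotic that causes local fibrosis, had been injected under the back skin of both genotypes on alternate days until day 28. The KO mice lack gasdermin D, the pore-forming protein of pyroptosis, in every cell, and were made by injecting Cas9 mRNA and a guide RNA into C57BL/6 zygotes. Saline-treated skin is not analysed here, so every value below is a level under BLM or a difference between genotypes under BLM.

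Most S100 proteins form dimers that expose a binding surface when calcium enters their EF-hand loops. S100a8 and S100a9 pair into calprotectin, which fills the cytosol of neutrophils and monocytes, is induced in stressed keratinocytes, sequesters zinc and manganese, and can act outside cells through Toll-like receptor 4 and the receptor RAGE. In skin, S100a4 is best known from fibroblasts and leukocytes, S100a14 and S100a16 from epithelial cells, S100a3 from the hair cuticle, and S100b from Schwann cells and melanocytes.

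The deposited table is named as raw counts, but 99.993% of its values above 0 are not whole. The values were read as FPKM, fragment numbers scaled to transcript length and library depth, and levels are compared between genes on that reading. A library summed to between 448544 and 462251 FPKM. From the steps between low values, the estimated worth of each fragment per 1 kb of transcript was 0.0572 to 0.0782 FPKM, with the deepest library being WT replicate 1. Behind a value of the 8 abundant S100 genes stood at least an estimated 272 fragments, and behind a value of S100a3 or S100b at least 20.3, so counting error was small for most of them. Gsdmd itself was present at 14.05 and 18.2 FPKM in WT skin against 3.53 and 2.26 FPKM in KO skin. Markers of skin were present in each library, with Krt14, a basal keratin, between 1214.5 and 2735 FPKM. The KO libraries were not alike. The 8 fibroblast markers summed to 583 FPKM in KO replicate 1 and 52.7 FPKM in KO replicate 2, while WT skin had 364 and 271 FPKM. The 6 adipocyte markers summed to 4204 and 308 FPKM in KO replicates 1 and 2, while WT skin had 3648 and 9544 FPKM. The 6 endothelial markers summed to 93.0 and 7.88 FPKM in these KO libraries, while WT skin had 67.6 and 98.1 FPKM. All 13 hair follicle keratins on the list, 9 of the hair shaft and 4 of its inner root sheath, were highest in KO replicate 1. In whole skin, fewer cells of a type and less RNA per cell cannot be told apart.

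The summed S100 level overlapped between the genotypes, while its make-up differed. The 10 genes together had 3384 and 3250 FPKM in WT skin against 3234 and 3585 FPKM in KO skin, between 0.703% and 0.795% of all FPKM in a library. S100a4, S100a8 and S100a9 made up 41.4% and 45.6% of this sum in WT mice and 19.2% and 10.001% in GSDMD KO mice. S100a14 and S100a16 made up 10.5% and 6.48% in WT mice and 23.3% and 28.9% in GSDMD KO mice. The widely expressed S100a6, S100a10 and S100a11 held 47.9% and 47.8% in WT and 53.3% and 60.9% in KO libraries. These 3 groupings were made after the values had been seen and are given without a test.

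**Figure D1:**
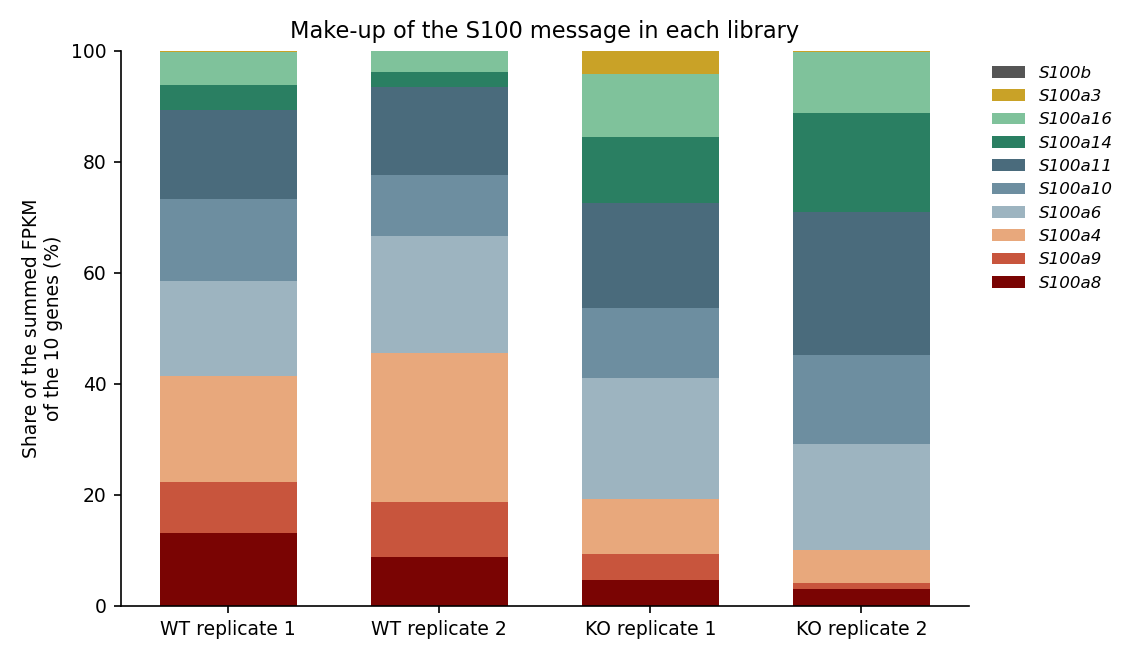
Share of the summed FPKM of the 10 S100 genes taken by each gene (y axis, percent from 0 to 100) in each of the 4 libraries (x axis). The red and orange bars (S100a8, S100a9, S100a4) fill 41.4% and 45.6% in WT and 19.2% and 10.001% in KO, and the green bars (S100a14, S100a16) widen from 10.5% and 6.48% to 23.3% and 28.9%.

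To compare the genotypes gene by gene, 13027 genes were fitted with limma on the log2(FPKM + 1) scale, where a fold change is KO minus WT and that of a low gene is understated. A gene was called where its adjusted p was under 0.05 and its log2 fold change exceeded 1 in size. Of the 10 S100 genes, 0 were called by limma, and of all genes tested 0 were called, a background of 0%. At an unadjusted p under 0.05 with the same limit on size, 3 S100 genes were lower in KO and 2 were higher, against 4.14% and 6.16% of all genes tested. The groups did not overlap in 8 S100 genes, with KO lower in 3 and higher in 5, against 20.5% and 35.3% of all genes. The median log2 fold change of the 10 genes was 0.17, and that of all genes was 0.11. Of the 10 genes 3 had a log2 fold change under 0 and 7 one above 0, and of all genes 41.4% and 58.6%. The smallest p that an exact two-sided permutation test can reach with 2 libraries a group is 0.333. The labels do not say whether replicates are separate animals, and p-values measure the spread between these libraries only.

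**Figure D2:**
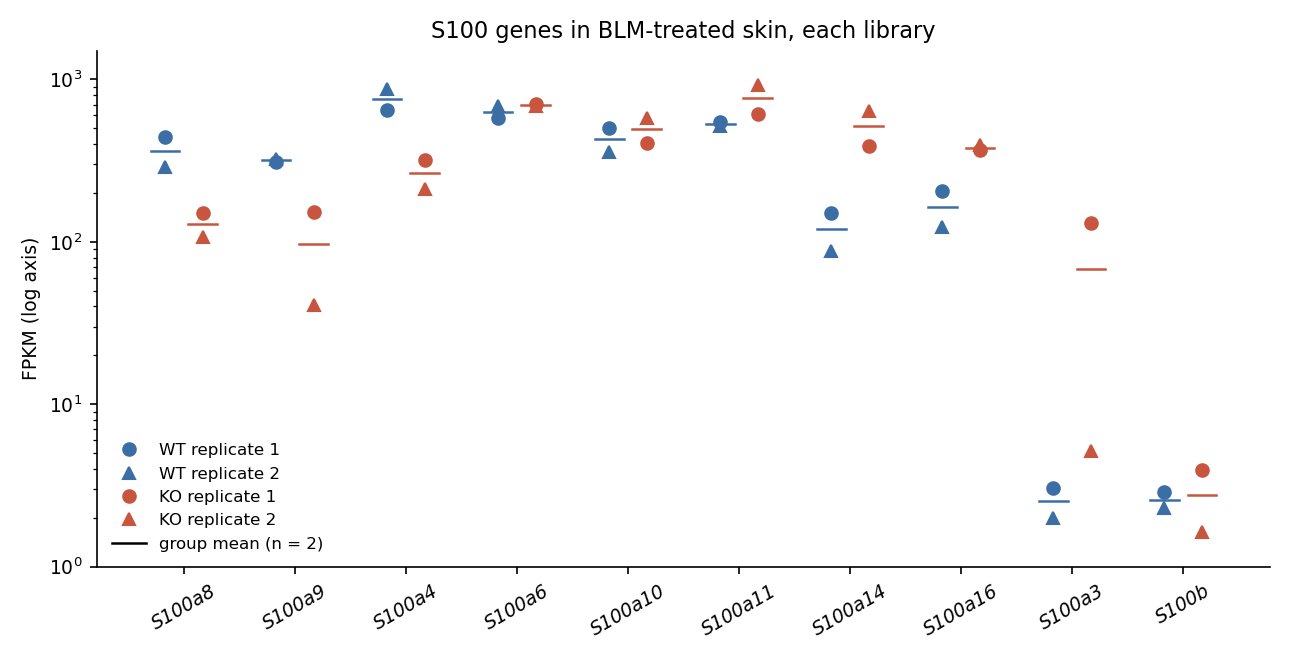
FPKM on a log axis (y) for each S100 gene (x), with WT in blue and KO in red, replicate 1 as circles, replicate 2 as triangles and bars for the group mean (n = 2). The red points lie below the blue ones for S100a8, S100a9 and S100a4 and above them for S100a14 and S100a16, and the KO mean of S100a3 rests on KO replicate 1 at 131 FPKM.

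The calgranulins S100a8 and S100a9, the subunits of calprotectin, were lower in both KO libraries. S100a8 had 440 and 287 FPKM in WT skin (replicates 1 and 2) against 151 and 107 FPKM in KO skin (replicates 1 and 2). The groups did not overlap, although the WT libraries themselves differed 1.53-fold. Its log2 fold change of -1.48 had a standard error of 0.33 (adjusted p = 0.248 by limma), a WT mean 2.83 times the KO mean. S100a9 had 312 and 322 FPKM in WT skin against 153 and 41.0 FPKM in KO skin. WT libraries were close together here, and KO replicate 2 lay 3.73-fold below KO replicate 1. The log2 fold change of S100a9 was -1.98 with a standard error of 0.63 (adjusted p = 0.254 by limma). Without KO replicate 1, which leaves KO replicate 2 as the lone KO library, it was -2.92, and without KO replicate 2 it was -1.05. S100a8 was called as well without KO replicate 1, at -1.73 (adjusted p = 0.0188 by limma), in a fit that called 9.2% of all genes lower and 6.59% higher.

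Although their proteins pair, the RNA of S100a8 and S100a9 did not keep a fixed ratio. S100a8 stood at 1.41 and 0.891 times the level of S100a9 in WT libraries and at 0.985 and 2.61 times in KO libraries. KO replicate 2 thus held the highest ratio, and the groups overlapped. S100a9 was the 234th and 229th most abundant gene of all in WT replicates 1 and 2, and the 471st and 1868th in KO replicates 1 and 2.

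The 200 bases upstream of the annotated start sites of S100a8 and S100a9 are shown because these genes were low in the same libraries. They were read from mm9, S100a8 from chr3:90472793-90472992 on the plus strand and S100a9 from chr3:90499644-90499843 on the minus strand, both 5′ to 3′, with capitals for the motif TATAAA.
S100a8: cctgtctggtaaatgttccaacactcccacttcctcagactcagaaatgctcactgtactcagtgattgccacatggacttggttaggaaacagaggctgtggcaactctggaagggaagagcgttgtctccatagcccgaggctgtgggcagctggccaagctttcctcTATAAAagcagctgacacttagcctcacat
S100a9: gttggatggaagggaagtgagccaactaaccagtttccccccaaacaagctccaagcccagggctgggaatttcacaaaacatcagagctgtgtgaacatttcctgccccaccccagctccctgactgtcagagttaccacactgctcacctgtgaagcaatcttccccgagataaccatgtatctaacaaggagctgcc
In S100a8 the TATAAA match starts 30 bases before the start site, and the S100a9 window has no match on either strand. Of 22375 windows of this length upstream of protein-coding genes, 10.1% hold TATAAA. Neither window holds the AP-1 motif TGANTCA, found in 4.80% of all windows, or the C/EBP motif TTNNGCAA, found in 7.20%, with both strands searched. A match is a description of the letters and not a binding site.

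Markers of the cells that are known to make calprotectin were set beside the calgranulins. The 13 neutrophil markers summed to 40.5 and 57.5 FPKM in WT skin against 28.1 and 22.2 FPKM in KO skin. Of the 6 neutrophil markers tested 6 had a lower log2 value in KO, and 5 did not overlap, against 41.4% and 20.5% of all genes. The other 7 were too low to be tested: Ly6g, Mmp8 and Mpo were lower in both KO libraries, and the granule genes Camp, Ltf, Ngp and Elane overlapped. Camp reached 2.51 FPKM in KO replicate 1 and did not exceed 0.348 FPKM in WT skin. Ly6g, which defines mouse neutrophils, had 0.238 and 0.0928 FPKM in WT skin and was listed at 0 in both KO libraries. These values are near or under the 0.172 to 0.235 FPKM that 3 fragments on 1 kb would give. Mpo, at 0.0227 and 0.0278 FPKM in WT skin and 0 in both KO libraries, was under that level throughout. S100a8 was 10.9 and 4.99 times the neutrophil sum in WT libraries and 5.36 and 4.81 times in KO libraries, so that this ratio overlapped between the groups. For S100a9 the ratio was 7.70 and 5.60 in WT and 5.44 and 1.85 in KO libraries, but Il1r2 alone made up 32.1% to 78.6% of the sum. Without Il1r2, left out after its values had been seen, S100a9 was 14.5 and 8.25 times the sum in WT libraries and 13.1 and 8.62 times in KO libraries, with overlap. S100a8 was then at 20.5 and 7.35 times in WT and 12.9 and 22.5 times in KO libraries, also with overlap. KO replicate 2 thus moved from the lowest S100a8 ratio to the highest. The 12 macrophage markers summed to 2100 and 2128 FPKM in WT, 897 FPKM in KO replicate 1 and 102 FPKM in KO replicate 2, and 12 of 12 had a lower log2 value in KO, against 41.4% of all genes. Relative to that sum S100a8 was at 0.210 and 0.135 in WT libraries and at 0.168 and 1.05 in KO libraries, with overlap. S100a9 was at 0.149 and 0.152 in WT libraries and at 0.170 and 0.401 in KO libraries, higher in KO without overlap on this relative scale. The part of these cells in the values of S100a8 and S100a9 was not tested.

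Keratinocytes activated by wounding make calprotectin too, and their summed markers overlapped between the groups. The 9 wound keratinocyte markers in the table, keratins of injured epidermis such as Krt6a and Krt16 among them, summed to 1582 and 593 FPKM in WT skin against 2600 and 1074 FPKM in KO skin. Of these markers 4 had a lower and 5 a higher log2 value in KO. In KO replicate 2 most of the sum came from Krt17, Krt6a and Defb14, at 530, 206 and 158 FPKM. Krt6b, Krt16, Sprr1b, Sprr2d, Sprr2h and Defb3 were lower in that library than in both WT libraries. Ratios to the sum in KO replicate 2 thus rest largely on Krt17, Krt6a and Defb14. S100a8 equalled 27.8% and 48.4% of the sum in WT libraries and 5.79% and 9.94% in KO libraries, and S100a9 19.7% and 54.4% against 5.88% and 3.81%. For both calgranulins the groups did not overlap on this relative scale.

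**Figure D3:**
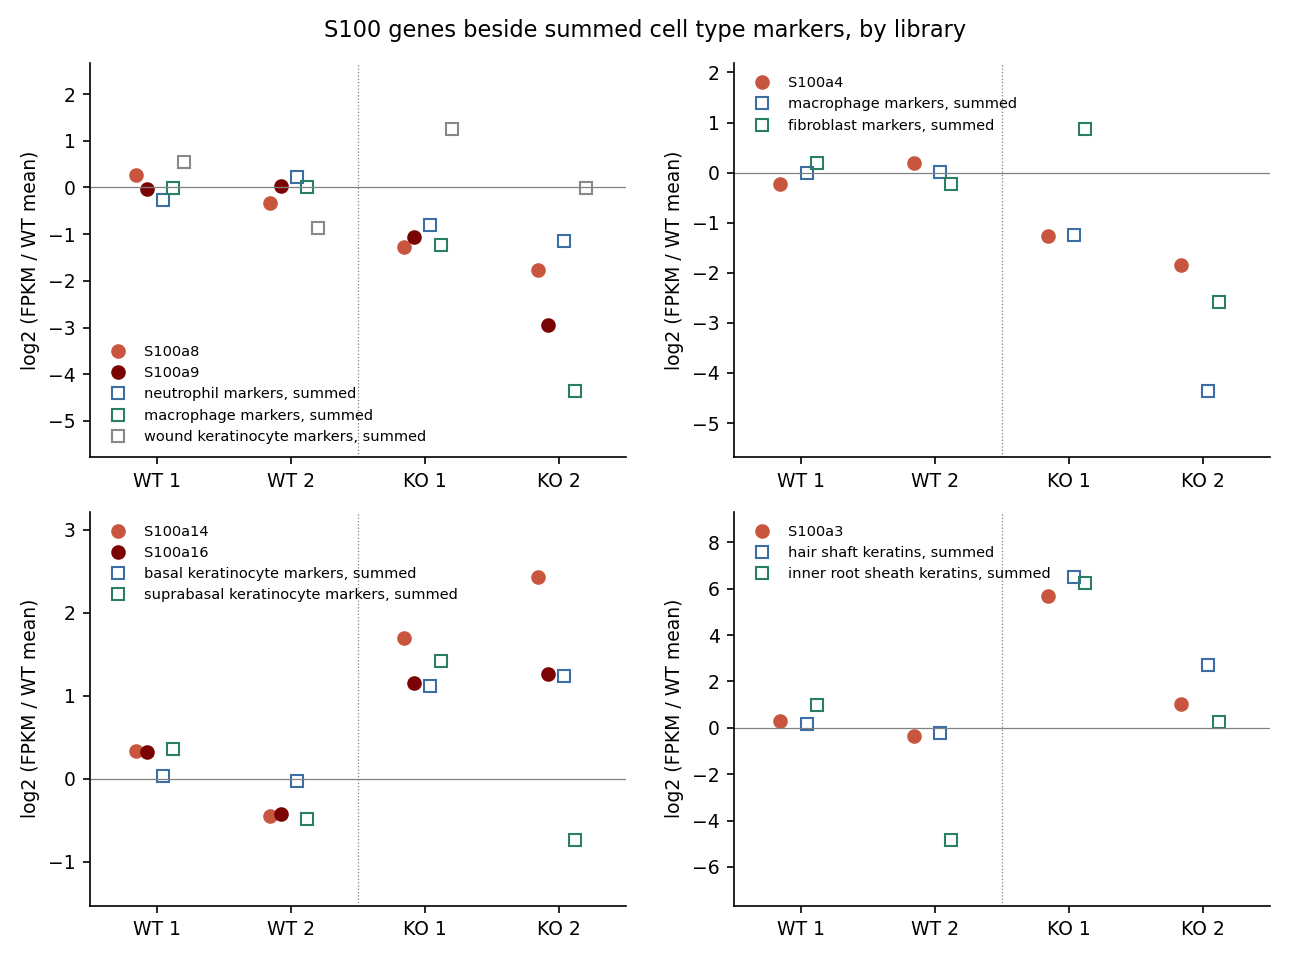
log2 of each library's FPKM over the mean of the WT libraries (y axis) in the 4 libraries (x axis), for S100 genes (filled circles) and the summed FPKM of cell type markers (open squares), in 4 panels. S100a8 and S100a9 lie below 0 in both KO libraries. The wound keratinocyte sum lies above 0 in KO replicate 1 and close to 0 in KO replicate 2. S100a16 lies beside the basal keratinocyte sum in both KO libraries but further from 0 than that sum in both WT libraries. S100a3 peaks with both sums of hair follicle keratins in KO replicate 1.

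S100a4, which binds non-muscle myosin and is a marker of fibroblasts and infiltrating leukocytes, had the highest level of the 10 genes in WT skin. It had 649 and 873 FPKM in WT skin against 318 and 211 FPKM in KO skin. The groups did not overlap, with a WT mean 2.88 times the KO mean. The log2 fold change of -1.54 had a standard error of 0.32 (adjusted p = 0.248 by limma). Without KO replicate 1 it was -1.83 and was called (adjusted p = 0.0107 by limma), and without any other library it was not called. Fibroblast markers were not low in both KO libraries: S100a4 was 1.78 and 3.22 times the fibroblast sum in WT libraries, 0.545 times in KO replicate 1 and 3.99 times in KO replicate 2. Against the macrophage sum it stood at 0.309 and 0.410 in WT and at 0.355 and 2.06 in KO libraries. The part of either cell type in the level of S100a4 was not tested. Myh9, the heavy chain of non-muscle myosin, had 32.8 and 39.0 FPKM in WT skin against 37.5 and 17.4 FPKM in KO skin, so the groups overlapped.

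The 200 bases upstream of S100a4 (mm9, chr3:90407492-90407691, plus strand) are shown because this gene, like S100a8, was low in both KO libraries, and capitals again mark TATAAA.
S100a4: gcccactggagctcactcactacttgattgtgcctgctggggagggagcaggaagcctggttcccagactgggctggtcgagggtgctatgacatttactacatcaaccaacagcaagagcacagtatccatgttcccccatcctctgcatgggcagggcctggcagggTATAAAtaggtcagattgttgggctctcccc
The match starts 31 bases before the start site. S100a4 and S100a8 were the 2 of the 10 S100 genes with TATAAA in this window, and neither the AP-1 nor the C/EBP motif was found in that of S100a4.

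S100a14 and S100a16, a pair of epithelial S100 genes, were higher in both KO libraries. They lie 12.4 kb apart by their coordinates in the table, and less by the first annotated start site of S100a16. S100a14 had 151 and 87.6 FPKM in WT skin against 388 and 642 FPKM in KO skin. The lower KO library was above the higher WT library, and the KO mean was 4.31 times the WT mean. Its log2 fold change of 2.11 had a standard error of 0.40 (adjusted p = 0.248 by limma). Without KO replicate 1, which leaves KO replicate 2 as the lone KO library, this was 2.47, and without KO replicate 2 it was 1.74. S100a16 had 206 and 123 FPKM in WT skin against 365 and 393 FPKM in KO skin, again without overlap. The KO libraries were close to each other, and the WT libraries differed 1.67-fold. The log2 fold change of S100a16 was 1.25 with a standard error of 0.32 (adjusted p = 0.248 by limma), and it was not called with any library left out.

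Basal keratinocyte markers were also higher in KO libraries. The 7 markers summed to 2278 and 2188 FPKM in WT skin against 4828 and 5284 FPKM in KO skin, and 7 of 7 did not overlap, against 35.3% of all genes. S100a16 was 9.03% and 5.62% of this sum in WT and 7.57% and 7.44% in KO libraries, so relative to basal keratinocyte markers the KO libraries lay between the WT libraries. S100a14 was 6.63% and 4.01% of the sum in WT and 8.03% and 12.1% in KO libraries and stayed without overlap. Its level over that of S100a16 was 0.735 and 0.713 in WT and 1.06 and 1.63 in KO libraries. The sum of the 8 suprabasal markers followed neither gene in KO replicate 2. It was 4286 and 2392 FPKM in WT, 8913 FPKM in KO replicate 1 and 2004 FPKM in KO replicate 2. S100a14 was 3.53% and 3.66% of it in WT, 4.35% in KO replicate 1 and 32.0% in KO replicate 2. For S100a16 these shares were 4.80%, 5.14%, 4.10% and 19.6%. Of the 8 markers 7 had a higher log2 value in KO and 1, Dsg1a, was higher without overlap, against 58.6% and 35.3% of all genes. The part of epidermal content in the levels of S100a14 and S100a16 was not tested.

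The 200 bases upstream of S100a14 (mm9, chr3:90330578-90330777, plus strand) are shown as the window of the higher of these genes in the KO libraries, and they hold none of the 3 motifs.
S100a14: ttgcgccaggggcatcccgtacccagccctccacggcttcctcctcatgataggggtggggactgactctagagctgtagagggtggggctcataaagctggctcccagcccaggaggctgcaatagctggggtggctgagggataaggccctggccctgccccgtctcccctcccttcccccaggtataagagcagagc
With 64% G and C, this window was richer in these bases than those of S100a8 (51%), S100a9 (52%) and S100a4 (56%).

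S100a6, S100a10 and S100a11, which partner with annexins and other proteins in many cell types, had log2 fold changes from 0.15 to 0.51, and none was called by limma. S100a6, also called calcyclin, had 576 and 684 FPKM in WT skin against 706 and 686 FPKM in KO skin. The groups were separated by a margin narrower than their spread, 685.8 against 684.1 FPKM. The log2 fold change was 0.15, with a 95% interval from -0.48 to 0.78 (adjusted p = 0.758 by limma). S100a10, the p11 subunit of the annexin A2 tetramer, had 500 and 355 FPKM in WT skin against 406 and 577 FPKM in KO skin, with overlap. Its log2 fold change of 0.20 had an interval from -0.62 to 1.02. S100a11, which binds annexin A1, had 543 and 514 FPKM in WT skin against 612 and 922 FPKM in KO skin. The groups did not overlap, and the log2 fold change of 0.51 had an interval from -0.26 to 1.27 (adjusted p = 0.405 by limma).

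Of 7 annexins and other binding partners 7 were tested, 3 had a lower and 4 a higher log2 value in KO, and 0 were called by limma. The groups did not overlap in 2 with lower and 1 with higher values in KO, against 20.5% and 35.3% of all genes. Anxa2, the partner of S100a10, had 464 and 522 FPKM in WT skin against 510 and 593 FPKM in KO skin, and S100a10 stood at 1.08 and 0.679 times its level in WT and at 0.796 and 0.973 times in KO libraries. Anxa1 had 179 and 113 FPKM in WT skin against 203 and 276 FPKM in KO skin, higher without overlap, and S100a11 stood at 3.04 and 4.56 times its level in WT and at 3.02 and 3.34 times in KO libraries. Both ratios overlapped between the groups. Anxa6 was at 130 and 129 FPKM in WT skin against 89.1 and 49.9 FPKM in KO skin, and Anxa11 was at 86.4 and 72.8 FPKM against 64.8 and 38.3 FPKM, so both were lower without overlap. The S100a6 partner Cacybp and the giant scaffold protein gene Ahnak had log2 fold changes of 0.60 and 0.29, with overlapping groups.

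S100a3, which encodes a zinc-binding protein of the hair cuticle, was set apart by 1 library. It had 3.05 and 2.00 FPKM in WT, 131 FPKM in KO replicate 1 and 5.18 FPKM in KO replicate 2. KO replicate 1 was 25.2-fold above KO replicate 2, and KO replicate 2 was above both WT libraries. The log2 fold change was 3.03 with a standard error of 1.41 (adjusted p = 0.336 by limma). Leaving out KO replicate 1 gave 0.83, and leaving out KO replicate 2 gave 5.24, where it was called (adjusted p = 0.00281 by limma) in a fit that called 0.215% of all genes higher. The 9 hair shaft keratins summed to 84.7 FPKM in KO replicate 1 and 6.09 FPKM in KO replicate 2, while the WT libraries had 1.07 and 0.814 FPKM, less than S100a3 itself. S100a3 was 2.86 and 2.46 times this sum in WT libraries, 1.54 times in KO replicate 1 and 0.851 times in KO replicate 2. The 4 inner root sheath keratins Krt25, Krt27, Krt28 and Krt71 summed to 252 FPKM in KO replicate 1 and 3.94 FPKM in KO replicate 2, and to 6.58 and 0.117 FPKM in WT skin. Both keratin groups were thus highest in the library where S100a3 was highest. They were listed together and were separated after their values had been seen. The part of hair follicle content in its level was not tested.

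S100b, a marker of Schwann cells and melanocytes, was low in each library. It had 2.86 and 2.29 FPKM in WT skin against 3.92 and 1.63 FPKM in KO skin, with an estimated 30.9 to 79.3 fragments behind a value. The KO libraries lay on either side of both WT libraries. The log2 fold change was 0.01, with a 95% interval from -0.94 to 0.96 (adjusted p = 0.987 by limma). The 9 Schwann cell markers summed to 201 and 165 FPKM in WT, 233 FPKM in KO replicate 1 and 86.9 FPKM in KO replicate 2. S100b was 1.42% and 1.39% of that sum in WT and 1.68% and 1.88% in KO libraries, higher in KO without overlap on this relative scale. Against the 7 melanocyte markers, which summed to 12.6 and 7.86 FPKM in WT skin against 83.0 and 10.3 FPKM in KO skin, it was 22.7% and 29.1% in WT and 4.72% and 15.8% in KO libraries, lower without overlap. The part of either cell type was not tested.

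**Figure D4:**
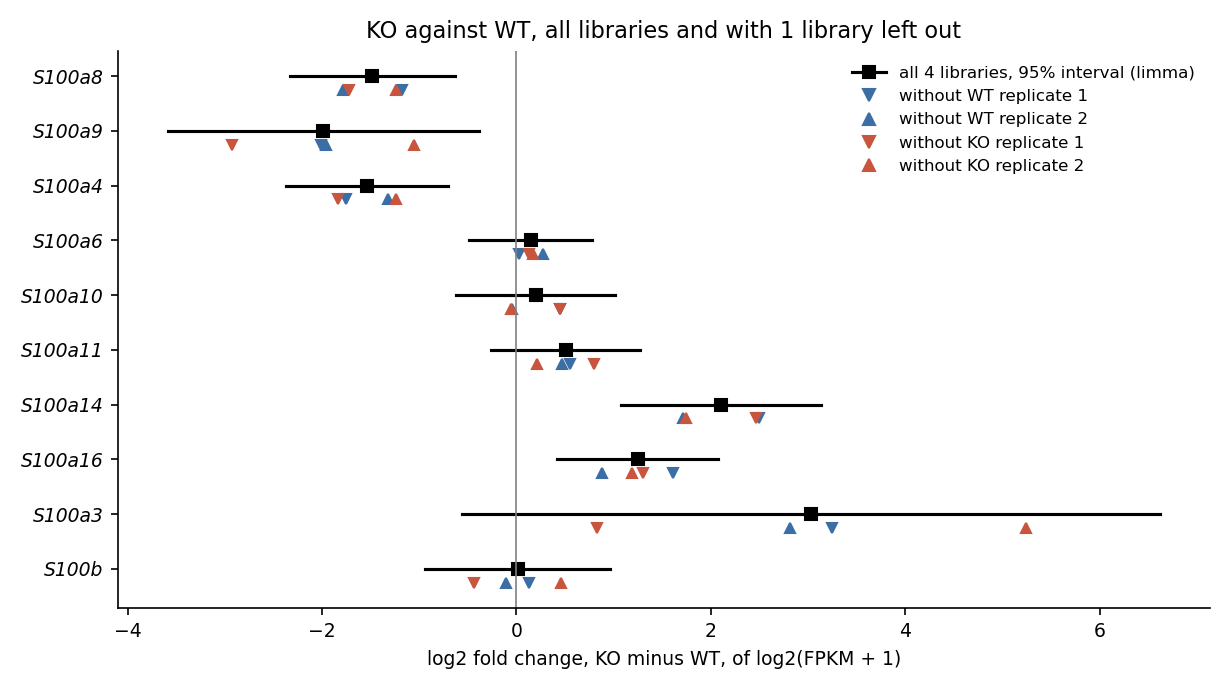
log2 fold change of log2(FPKM + 1), KO minus WT (x axis), for each S100 gene (y axis). Black squares with lines are the values over all 4 libraries with 95% limma intervals, and triangles are the values with 1 library left out. S100a8, S100a9, S100a4, S100a14 and S100a16 keep their side of 0 throughout, S100a3 moves between 0.83 and 5.24, and S100a10 and S100b cross 0.

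Of the 10 genes, 9 lie on chromosome 3 and S100b lies on chromosome 10 from 75716581 to 75724064 (mm9). A group of 7 genes spans 169 kb of chromosome 3 from 90330771 to 90499643, in the order S100a14, S100a16, S100a3, S100a4, S100a6, S100a8 and S100a9, and S100a11 and S100a10 follow between 93324418 and 93368567, next to the epidermal differentiation genes. Neighbours in this order did not always share a direction. S100a3 and S100a4 are 1.07 kb apart on the same strand, and their log2 fold changes were 3.03 and -1.54. Downstream of both, S100a6 stood at 0.15. No exon of the 10 genes overlaps an exon of another annotated gene on either strand. S100a16 has 8 annotated transcripts of 422 to 1127 bases, and its start in the table lies downstream of the first annotated start site.

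**Figure D5:**
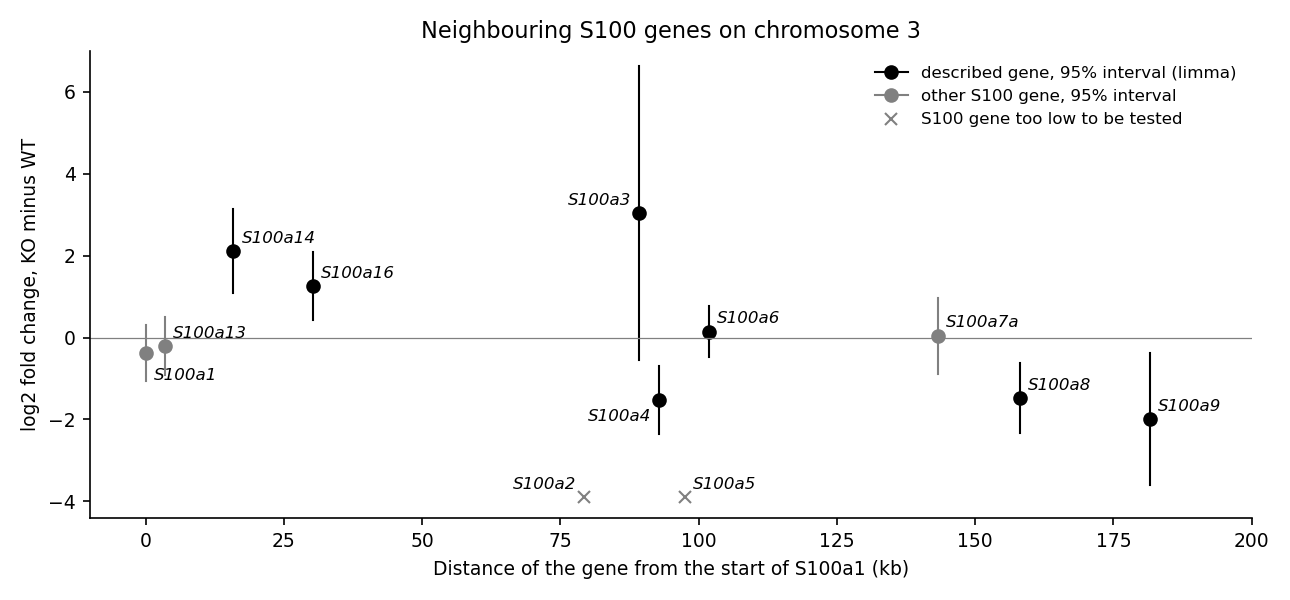
log2 fold change, KO minus WT (y axis), against the distance of each S100 gene from the start of S100a1 in kb (x axis), with 95% limma intervals; described genes are black, other S100 genes grey, and crosses, set at the foot of the plot with no value, are genes too low to be tested. S100a14 and S100a16 lie above 0, S100a8 and S100a9 below 0, and S100a3 and S100a4 stand side by side at 3.03 and -1.54.

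Among the other S100 genes, 7 are in the table and 3 passed the filter of at least 1 FPKM in at least 2 libraries. S100a1, a sensor best known from heart and skeletal muscle, had 229 and 302 FPKM in WT skin against 189 and 216 FPKM in KO skin, lower without overlap, with a log2 fold change of -0.38 (adjusted p = 0.468 by limma). S100a13, its neighbour, which takes part in the release of FGF1 and IL-1α, had 60.4 and 86.3 FPKM in WT skin against 67.4 and 57.7 FPKM in KO skin. S100a7a, a mouse relative of psoriasin, did not exceed 1.64 FPKM in a library. S100a2 and S100a5 were above 0 in KO replicate 2 alone, at 1.11 and 0.406 FPKM, S100g did not exceed 0.320 FPKM, and S100z was listed at 0 in the 4 libraries.

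The fused S100 proteins, large proteins of the cornified layer and inner root sheath that begin with an S100 domain, were highest in KO replicate 1 in 6 of the 6 genes present, against 21.8% of all genes above 0. Of these, 4 were tested, 4 had a log2 fold change above 0, against 58.6% of all genes, and 0 were called by limma. Tchh, the trichohyalin gene, had 1.31 and 0.552 FPKM in WT, 38.2 FPKM in KO replicate 1 and 1.52 FPKM in KO replicate 2, a pattern like that of S100a3. Rptn, repetin, varied 5.12-fold between KO libraries, at 77.5 and 15.1 FPKM, and was at 33.4 and 4.34 FPKM in WT. Flg2, filaggrin-2, had 14.5 and 2.52 FPKM in WT skin against 26.1 and 16.9 FPKM in KO skin.

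Receptors and adaptors through which extracellular S100 proteins are known to act had a lower log2 value in KO in 6 of 7 genes, against 41.4% of all genes, and 0 of 7 were called by limma. Tlr4, a receptor of calprotectin, had 3.41 and 3.06 FPKM in WT skin against 2.20 and 0.871 FPKM in KO skin, without overlap. Its co-receptor Cd14 had the largest difference of the 7, from 63.8 and 123 FPKM to 8.26 and 4.38 FPKM. Ager, which encodes RAGE, was low, with 1.77 and 2.77 FPKM in WT skin against 2.31 and 2.00 FPKM in KO skin, and overlapped. Bsg, the basigin gene, had 377 and 431 FPKM in WT skin against 321 and 346 FPKM in KO skin, lower without overlap at a log2 fold change of -0.27. Ly96, the MD-2 subunit of the Tlr4 complex, had a log2 fold change of 0.49 and was the 1 gene of the list with a higher value.

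The genes most like each S100 gene were sought among at least 6062 tested genes with a mean of at least 10 FPKM, by the Euclidean distance between log2(FPKM + 1) values centred over the 4 libraries. Nearest to S100a8 was Myl4 (distance 0.10), a myosin light chain gene with 169 and 114 FPKM in WT skin against 63.1 and 41.0 FPKM in KO skin. Next came the troponin gene Tnnt2 (0.25) and Klhl33 (0.27). Of the 5 skeletal muscle markers, 5 had a lower log2 value in KO and 4 did not overlap, against 41.4% and 20.5% of all genes. Nearest to S100a9 was Slfn2 (distance 0.09), a gene of immune cells with 57.5 and 55.9 FPKM in WT skin against 25.9 and 6.25 FPKM in KO skin. Next came Nrros (0.18) and Sprr2f (0.19), a gene of the keratinocyte cornified envelope with 21.7 and 20.7 FPKM in WT skin against 8.46 and 2.03 FPKM in KO skin. S100a4 was nearest to the interferon-induced gene Oas1a (0.19), S100a14 to Cdca7 (0.06) and then to the tight junction gene Cldn1 (0.13), and S100a16 to Srpk1 (0.08). S100a6 was nearest to Fau (0.03), S100a10 to Dars (0.06), S100a11 to Zscan26 (0.03) and S100b to Spns2 (0.08). S100a3 was nearest to Krtap7-1 (0.36), a keratin-associated protein gene of hair, followed by Krtap22-2 and Krt27. The 10 genes were not each other's nearest neighbours: the smallest distance between any of them was 0.43, between S100a10 and S100a11. With 4 libraries, such distances describe these samples only.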

How the data were processed

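Whole-skin RNA of BLM-treated WT and GSDMD KO mice was sequenced, with 2 libraries per group assigned by their titles. Per the labels, reads were aligned to mm9, and the submitters' processing notes name HISAT2 version 2.0.1 and StringTie version 2.0.6. The paper's methods describe read counts and DESeq2, and the deposited table is named as raw counts, but 99.993% of its values above 0 are not whole. They were read as FPKM made by the authors, already divided by length and depth; this unit is inferred from the values, since no source states it, and no count model was used.

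The members and gene lists were chosen with earlier results of these data known. Named genes are the members, the listed S100 relatives, partners, receptors and markers, and for each member the 3 genes of smallest distance.

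Genes were kept where 2 or more libraries reached 1 FPKM, and these 13027 were fitted on log2(FPKM + 1) in limma (version 3.58.1, under R version 4.3.3) (genotype only, empirical Bayes with a mean-variance trend, Benjamini-Hochberg adjustment). The fit and the depth estimate were tested on simulated data. Depth was estimated from the FPKM worth of 1 fragment in 2710 genes with 1 annotated transcript of 2 kb or longer, so fragment numbers are approximate, and 3 fragments on 1 kb would stand at 0.172 to 0.235 FPKM. Of 20310 symbols found in GENCODE vM1 (mm9), 99.2% overlapped the annotated gene. Python version 3.11.15 with pandas version 2.3.3 was used for the tables. Alternatives were other pseudocounts and scalings, no filter, no trend, the replicate number as a block and each library left out.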

Additional observations from a re-analysis of the deposited data

How the results depend on the processing

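Under 12 alternatives, 108 of 120 gene values kept their direction and stayed uncalled. Except where a KO library was left out, 0 of all genes were called, so in those fits only the direction could change. S100a16 at 0.88 without WT replicate 2 and S100a3 at 0.83 without KO replicate 1 fell under the limit on size and count among the 108. With 1 library left out, where the lone sample is assumed to vary like the other group, the count of S100 genes called ran from 0 to 4, against 0 with all libraries. The 4 were S100a4, S100a8, S100a9 and S100a14 without KO replicate 1, where 9.2% and 6.59% of all genes were called lower and higher. The 1 without KO replicate 2 was S100a3, where 0.215% were called higher. The number of S100 genes lower in KO ran from 3 to 5, the 5 without WT replicate 2. S100b turned from 0.01 to -0.014 with a pseudocount of 0.1 FPKM, -0.084 with median-ratio factors, -0.060 with upper-quartile factors, and, with 1 library left out, ran from -0.44 (without KO replicate 1) to 0.46, also below 0 at -0.10 without WT replicate 2. S100a10 ran from -0.051 without KO replicate 2, with -0.047 without WT replicate 2, to 0.45 without KO replicate 1. The cause of these turns was not tested. Under median-ratio factors the median over all genes went from 0.11 to -0.0061 and that of the 10 S100 genes from 0.17 to 0.04. With 1 library left out the S100 median ran from 0.11 (without WT replicate 2) to 0.29 (without KO replicate 1). The median over all genes was 0.065 and 0.13 in those 2 fits.

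Same-numbered WT and KO libraries did not deviate together (r = -0.20 over 13027 genes), and no source pairs them. With the replicate number as a block 0 S100 genes were called, 3 were lower and their median was 0.17. With the numbers crossed, an alternative chosen after seeing the data, 0 were called too. Depth limits S100a2, S100a5 and S100g, with at most 2.24 estimated fragments where an annotated length was at hand.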
